A study of Bos taurus with 12 samples.

Results

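The genes described here encode the protein-synthesis machinery: the proteins of the cytosolic ribosome, the proteins of the mitochondrial ribosome, and the factors that start, elongate and regulate translation. They were taken as every gene whose symbol begins with RPL, RPS (without the RPS6K kinases), MRPL, MRPS, EIF or EEF among the 2911 genes paired with an Ensembl identifier in the copies of the study's supplementary tables read here, which are shortened, and that had 10 or more counts in 6 or more of 12 libraries. The rule found 60 genes of the 27607 in the count table: 20 cytosolic ribosomal protein genes, 26 mitochondrial ribosomal protein genes and 14 translation factor genes. All 60 symbols passed the count minimum, in 12 of 12 libraries each, and all 60 were among the 13012 genes tested. Because those copies are shortened, each class is a part of its family, and the other family genes were not analysed here. The choice was also not blind to the data: 49 of the 60 symbols come from tables of gene pairs that are strongly correlated within the fertile or within the subfertile heifers (39 from the subfertile and 17 from the fertile pairs), 18 come from gene-protein pairs that are likewise correlated within a group, and 1 comes from a list of differing proteins. According to the paper, gene pairs were kept only if they held a differing gene or a predicted regulator of such genes. Gene-protein pairs were kept only if they held a differing gene or a differing protein. Members could thus be named through a partner chosen for differing between these groups.

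A ribosome consists of a small subunit that reads the mRNA and a large subunit that forms the peptide bonds. Cytosolic ribosomal proteins and several translation factors are encoded by mRNAs that share a pyrimidine-rich start, the 5′ TOP motif, through which mTOR signalling controls their translation as a set, whereas the mitochondrial ribosome makes only the few proteins encoded by the mitochondrial genome. Initiation is held in check by the 4E-binding proteins, which block the cap-binding factor eIF4E, and by the eIF2α kinases, which slow initiation under stress. In resting lymphocytes protein synthesis is low, and it rises when the cells are activated.

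The samples were peripheral white blood cells (PWBCs) of 12 Simmental-Angus cross-bred heifers, 1 library per heifer, taken 2 days before artificial insemination (AI). All heifers went through the same synchronization, in which GnRH and an intravaginal progesterone device were given, the device was taken out after 7 days with a prostaglandin injection, and AI with semen of a single Angus sire and GnRH followed about 54 h later; bulls were then present for about 60 days. The 6 fertile heifers (label Pregnant) conceived to the first AI, and the 6 subfertile heifers (label Open) were not pregnant after AI and natural service. The reproductive tract score was 4 in 5 heifers of each group and 5 in the other (LM1247, fertile, and LM1246, subfertile). The outcome was known only after sampling, the heifers were chosen to be alike in tract score, weight and age at breeding, and PWBCs are a mixture of cell types, so in these bulk libraries fewer cells of a type and less RNA per cell cannot be told apart.

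Library totals ranged from 14010736 to 21278761 counts on genes, and the 60 members had between 113 and 62837 counts in a library. Among lymphocyte markers, the T cell gene CD3E was at 322 to 740 CPM (counts relative to the library total, with libraries scaled by the trimmed mean of M values, TMM) and the B cell gene CD79A at 335 to 719 CPM. Of the neutrophil genes CXCR2 was at 0 to 7.81 CPM and S100A9 at 21.7 to 211 CPM, and the erythroid gene EPB42 was at 0.602 to 5.44 CPM. Platelet RNA was present: the summed level of 4 platelet markers (GP9, ITGA2B, ITGB3, TUBB1) was 528 to 9913 CPM. A pair of libraries stood apart for the genes described here, LM1244 (fertile) and LM1246 (subfertile). Their platelet sums were the lowest of the 12, at 536 and 528 CPM against 1007 to 9913 CPM in the others, and their TMM factors were the highest, at 1.102 and 1.106. The part of cell composition in the results that follow was not tested, and the class results are also given without both libraries.

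None of the 60 genes was called different between subfertile and fertile heifers. A gene was called at an unadjusted P of 0.05 or less and an absolute log2 fold change (log2FC, subfertile against fertile) of 0.5 or more. By the quasi-likelihood test of edgeR, 0 of 60 members were called, beside 1.4% of all genes tested (182 of 13012, 86 higher and 96 lower). The count was also 0 of 60 by DESeq2, which called 1.77% of all genes, and by voom with limma, which called 1.1%. At P of 0.05 or less alone edgeR found 1 member, EIF2AK1, beside 2.62% of all genes, and EIF2AK1 was also the 1 member at that level by DESeq2 (P 0.0140) and voom (P 0.0340). At such shares a list of 60 genes can hold 0 or 1 such gene without differing from other genes. The smallest edgeR P adjusted over all genes was 0.9998, so no gene of the table passed at an adjusted P of 0.05.

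**Figure D1:**
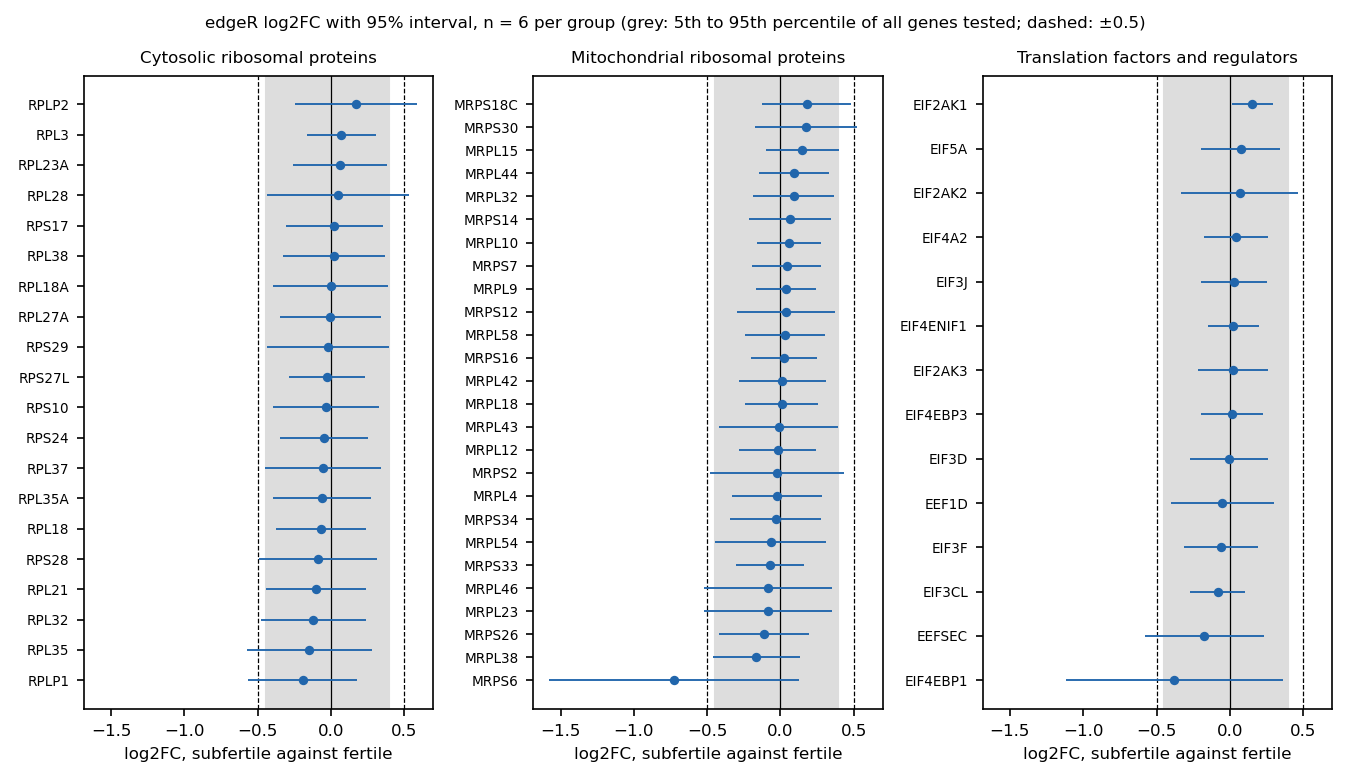
Log2FC of each of the 60 members (horizontal axis, subfertile against fertile, points) with the 95% interval of edgeR (lines), in 3 panels by class; grey marks the 5th to 95th percentile of all genes tested (-0.45 to 0.40) and dashed lines the threshold of 0.5 either way. Of the 60 intervals 50 lie within the dashed lines, MRPS6 and EIF4EBP1 have the widest, and the interval of EIF2AK1 alone stays on one side of 0.

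Cytosolic ribosomal protein genes had nearly the same level in both groups. Their median log2FC was -0.03, beside 0.01 over all genes tested, with 6 of 20 above 0 and 14 below, and the single values ran from -0.19 to 0.17. For 16 of the 20 the whole 95% interval lay between -0.5 and 0.5, which held for 50.4% of all genes tested. The 14 large-subunit genes (median -0.03) and the 6 small-subunit genes (median -0.03) did not separate. Together the 20 genes took 1.80% ± 0.293 (SD, n = 6) of the counts in fertile and 1.74% ± 0.222 (SD, n = 6) in subfertile heifers, and the ranges of both groups overlapped (1.37 to 2.04% and 1.32 to 1.95%). These values moved with single libraries: without LM1246 the median was 0.05 with 16 above 0 and 4 below, without LM1330 it was 0.01 with 11 above and 9 below, and without LM1244 it was -0.12 with 2 above and 18 below. With both LM1244 and LM1246 left out it was -0.03 with 7 above and 13 below.

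**Figure D2:**
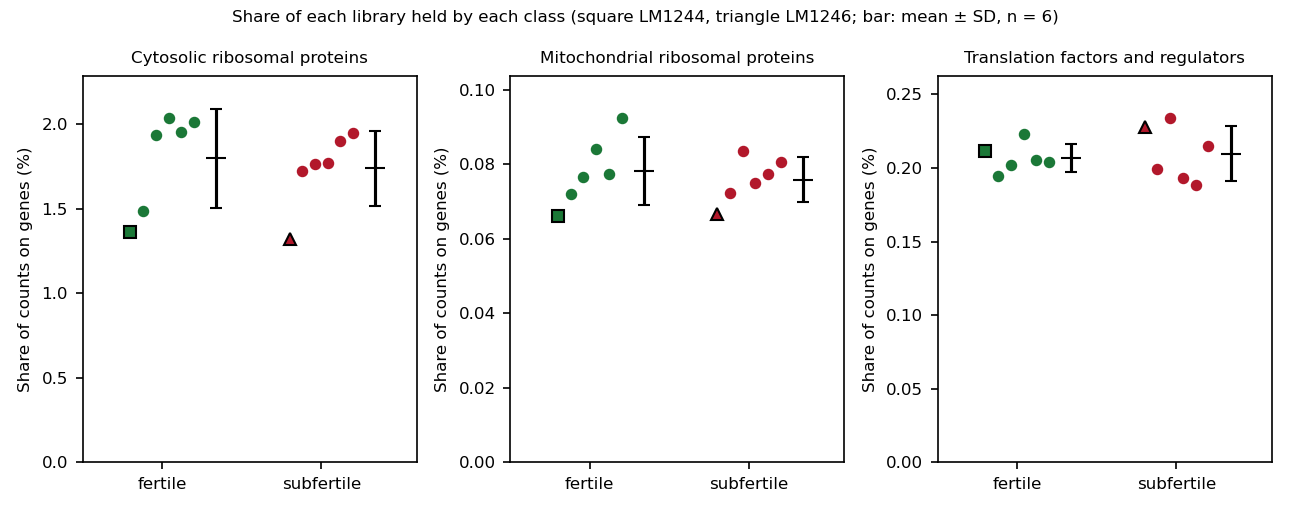
Share of the counts on genes (vertical axis, %) taken by the 20 cytosolic, 26 mitochondrial and 14 factor genes in each heifer, by fertility group; points are heifers, the square is LM1244, the triangle LM1246, and bars give mean ± SD (n = 6). The groups overlap in all 3 classes, and LM1244 and LM1246 have the lowest cytosolic share of their groups, at 1.37 and 1.32%.

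RPLP1 and RPLP2 are the acidic proteins that pair in the stalk of the large subunit, which recruits the translational GTPases, and they held the lowest and the highest log2FC of the class. RPLP1 (ENSBTAG00000018320) had a lowest, median and highest level of 1736, 2653 and 3118 CPM in fertile and 1400, 2420 and 2579 CPM in subfertile heifers. Its log2FC was -0.19 (SE 0.17, edgeR P 0.285). The groups overlapped, and LM1246 and LM1244 were the lowest of the 12; without them the log2FC was -0.18 (P 0.165). RPLP2 (ENSBTAG00000001777) was at 375, 469 and 613 CPM in fertile and at 349, 582 and 735 CPM in subfertile heifers. Its log2FC was 0.17 (SE 0.20, P 0.397), and LM1259, a subfertile heifer, was lowest next to LM1246, while LM1251 was highest; without LM1244 and LM1246 the log2FC was 0.23 (P 0.258).

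Of the other cytosolic genes at the ends of the range, RPL35, which sits at the exit of the peptide tunnel, had a log2FC of -0.15 (SE 0.20, edgeR P 0.468), and RPL32 had -0.12 (SE 0.17, P 0.481). On the other side RPL3, which reaches towards the peptidyl transferase centre, had 0.07 (SE 0.11, P 0.531), and RPL23A, a neighbour of RPL35 at the tunnel exit, had 0.06 (SE 0.15, P 0.694). The sign of RPL23A turned when LM1244 or LM1283 was left out.

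The mitochondrial ribosomal protein genes did not move as a class either. Their median log2FC was 0.01, with 14 of 26 above 0 and 12 below, and 22 of 26 had a 95% interval within -0.5 to 0.5. The split moved with single libraries as well: it was 22 above and 4 below without LM1246 (median 0.07), and 9 above and 17 below without LM1244 (median -0.04), while without both it was 14 and 12 again (median 0.01). The 15 genes with the prefix MRPL had a median of 0.01 and the 11 with the prefix MRPS a median of 0.02. Their share of the counts was 0.0781% ± 0.00912 (SD, n = 6) in fertile and 0.0759% ± 0.00606 (SD, n = 6) in subfertile heifers.

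MRPS6 (ENSBTAG00000012594), a small-subunit protein, had the largest difference and the largest spread of the class. It was at 24.8, 46.7 and 171 CPM (lowest, median and highest) in fertile and at 25.2, 37.9 and 60.7 CPM in subfertile heifers. A single fertile heifer, LM1330, held the highest value, and the other 11 lay between 24.8 and 65.6 CPM. The log2FC was -0.73 (SE 0.40, edgeR P 0.0892), and the exact two-sided permutation test over all splits of the heifers gave P = 0.307. Without LM1330 the log2FC was -0.17, and without LM1244 it was -0.89 with P 0.0314, the 1 case in which a member was called; in that fit 365 of 13163 genes were called. It was -0.79 (P 0.0650) without LM1244 and LM1246 together. LM1330 also had the highest platelet marker sum, 9913 CPM against 528 to 3165 CPM in the other libraries, and the part of platelet RNA in the MRPS6 value was not tested.

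The other mitochondrial genes at the ends of the range differed by less than the spread between heifers. MRPL38 had a log2FC of -0.16 (SE 0.14, edgeR P 0.253) and MRPS26 one of -0.11 (SE 0.14, P 0.453). MRPS18C had 0.18 (SE 0.14, P 0.226), MRPS30 had 0.17 (SE 0.16, P 0.296) and MRPL15 had 0.15 (SE 0.12, P 0.222). With 1 library left out MRPL38 ran from -0.23 to -0.10 and MRPS26 from -0.20 to -0.04. In the same fits MRPS30 ran from 0.07 to 0.27 and MRPL15 from 0.08 to 0.21. MRPS18C was at 18.3 to 23.2 CPM in subfertile heifers and at 15.0 to 26.8 CPM in fertile heifers, of which only LM1262 lay above 18.1 CPM; without LM1262 its log2FC was 0.31 with P 0.0152, still under the threshold of 0.5.

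Among the translation factors, EIF2AK1 was higher in every subfertile than in any fertile heifer, by a small amount. EIF2AK1 (ENSBTAG00000007370) encodes HRI, the heme-regulated kinase that phosphorylates eIF2α when heme is short. Its lowest, median and highest level was 106, 111 and 117 CPM in the fertile group and 118, 124 and 131 CPM in the subfertile group. The highest fertile heifer was LM1330 at 116.8 CPM and the lowest subfertile heifer LM1283 at 117.8 CPM, so the groups did not overlap but nearly touched. The means were 111 ± 4.28 and 124 ± 4.63 CPM (SD, n = 6), and the log2FC was 0.15 (SE 0.07, 95% interval 0.01 to 0.29), under the threshold of 0.5.

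The edgeR P of EIF2AK1 was 0.0339, and 0.9998 after adjustment over all genes. The exact two-sided permutation test gave P = 0.00216, the smallest that 6 against 6 heifers allow. That smallest value is reached by every gene whose groups do not overlap, which held for 0.123% of all genes tested (16 of 13012) and for 1 of the 60 members; in the direction of EIF2AK1, with subfertile heifers higher, it held for 0.0692% (9 genes). On library size alone, without TMM, the groups of EIF2AK1 did overlap (99.1 to 119 CPM in fertile and 106 to 138 CPM in subfertile heifers) and the edgeR P was 0.0933, and with no filter on low counts P was 0.0557. Leaving out single heifers gave log2FC of 0.14 to 0.17 with P from 0.0268 to 0.0750, at or under 0.05 in 5 of 12 cases, and without LM1244 and LM1246 the log2FC was 0.14 (P 0.0648).

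The other eIF2α kinases among the members, EIF2AK2 and EIF2AK3, overlapped fully between the groups. EIF2AK2, the double-stranded RNA sensor PKR, was at 23.1, 30.5 and 34.4 CPM in fertile and at 18.7, 29.0 and 46.7 CPM in subfertile heifers. Its log2FC was 0.07 (SE 0.19, edgeR P 0.723), with both the highest heifer (LM1246) and the lowest (LM1283) in the subfertile group. EIF2AK3, the endoplasmic reticulum kinase PERK, had a log2FC of 0.02 (SE 0.11, P 0.849).

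EIF4EBP1 (ENSBTAG00000027654), which binds eIF4E and blocks cap-dependent initiation until mTOR phosphorylates it, varied most among the factors. It was at 6.86, 15.1 and 26.9 CPM in fertile and at 5.27, 10.9 and 20.4 CPM in subfertile heifers, a 5.12-fold range over the 12. The lowest heifers were LM1246 and LM1244 and the highest was LM1330. Its log2FC was -0.38 (SE 0.35, edgeR P 0.291), and it ran from -0.59 without LM1283 to -0.17 without LM1330; without LM1244 and LM1246 it was -0.38 and the range was 2.75-fold. Its relative EIF4EBP3 kept to 84.2 to 122 CPM with a log2FC of 0.01 (SE 0.10, P 0.889), and EIF4ENIF1, which carries eIF4E into the nucleus and to processing bodies, kept to 49.1 to 60.5 CPM with a log2FC of 0.02 (SE 0.08, P 0.762).

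The other factors named here were close to 0 as well. EEFSEC, the elongation factor that brings selenocysteine to the ribosome, had a log2FC of -0.17 (SE 0.19, edgeR P 0.375). Its interval was -0.58 to 0.23, and its log2FC ran from -0.31 without LM1283 to -0.09 without LM1246. EIF3CL, a near copy of the eIF3 subunit gene EIF3C, had -0.08 (SE 0.09, P 0.366), and EIF5A, the hypusine-carrying factor that relieves stalled ribosomes, had 0.07 (SE 0.13, P 0.565). With 1 library left out EIF3CL ran from -0.13 to -0.04 and EIF5A from 0.006 to 0.13. Over the 14 factor genes the median log2FC was 0.02, with 8 above 0 and 6 below, and 12 of 14 intervals lay within -0.5 to 0.5. Without LM1246 that median was -0.02 with 6 above 0 and 8 below, and without LM1244 it was 0.02 with 8 above and 6 below. With both left out it was -0.02 with 6 above and 8 below.

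**Figure D3:**
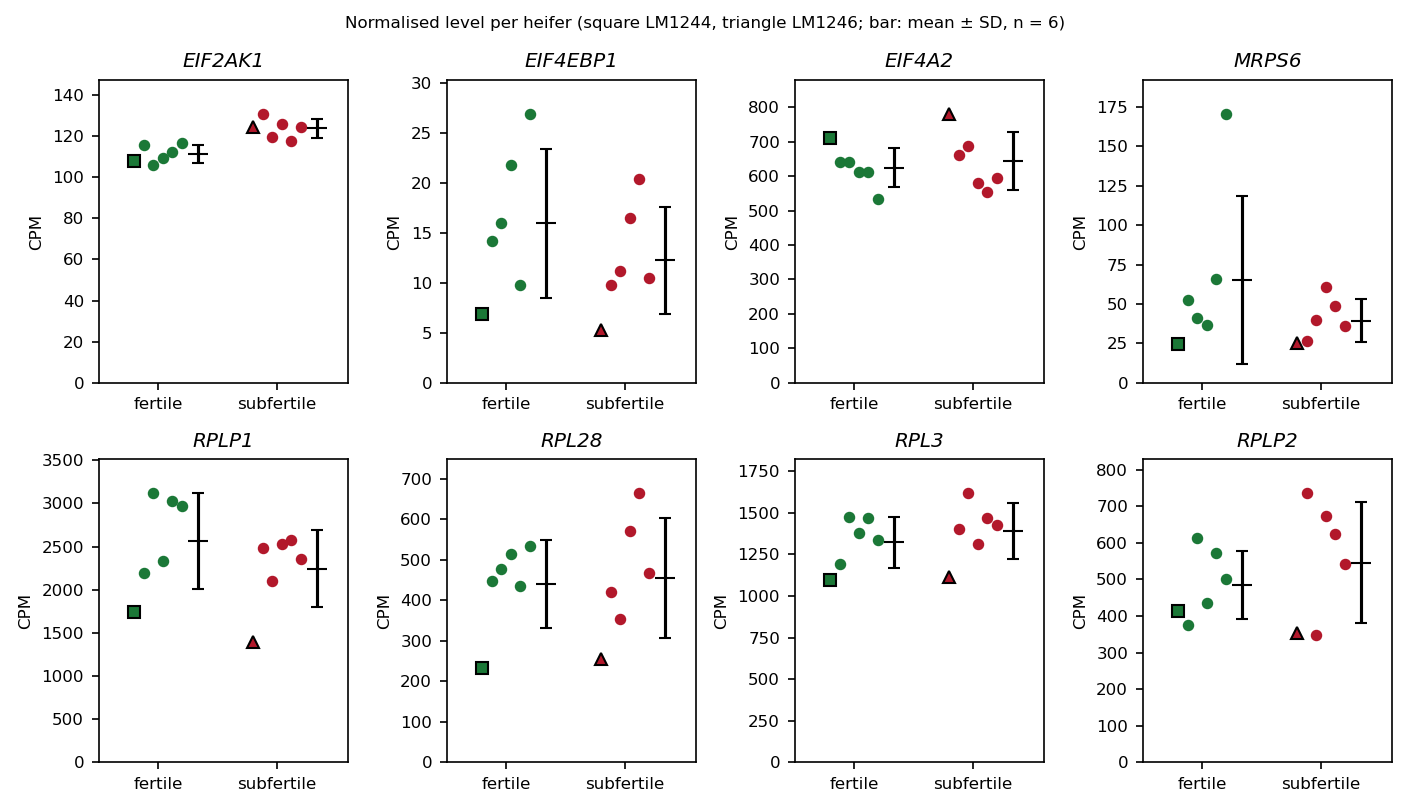
Level of 8 members in each heifer (vertical axis, TMM-scaled CPM from 0), by fertility group; points are heifers, the square is LM1244, the triangle LM1246, and bars give mean ± SD (n = 6). EIF2AK1 separates the groups by a narrow gap, MRPS6 has 1 high fertile heifer at 171 CPM, and LM1244 and LM1246 are low for RPLP1, RPL28 and RPL3 and high for EIF4A2.

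The difference that ran through the cytosolic class was one between heifers within both groups. LM1244 and LM1246 were the lowest pair of the 12 for 19 of 20 cytosolic genes, with RPLP2 the exception, beside 12.2% of all genes tested. The pair was also lowest for 16 of 26 mitochondrial and 6 of 14 factor genes, and it was the highest pair for 3 factor genes, beside 9.64% of all genes. On library size alone the count was 15 of 20 cytosolic, 7 of 26 mitochondrial and 4 of 14 factor genes, beside 5.67% of all genes. The mean deviation of the cytosolic genes from their 12-heifer mean was -0.51 in LM1244 and -0.56 in LM1246 on the log2 CPM scale. The next lowest was LM1247 at -0.15, and the highest was LM1283 at 0.31. All but 1 of the members were named for a correlation of their expression within a group, with another gene or with a protein, so these counts are not independent of how the members were chosen. The pair of libraries was also picked after these values were seen. The counts therefore describe the pair, and the shares of all genes beside them are no test.

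**Figure D4:**
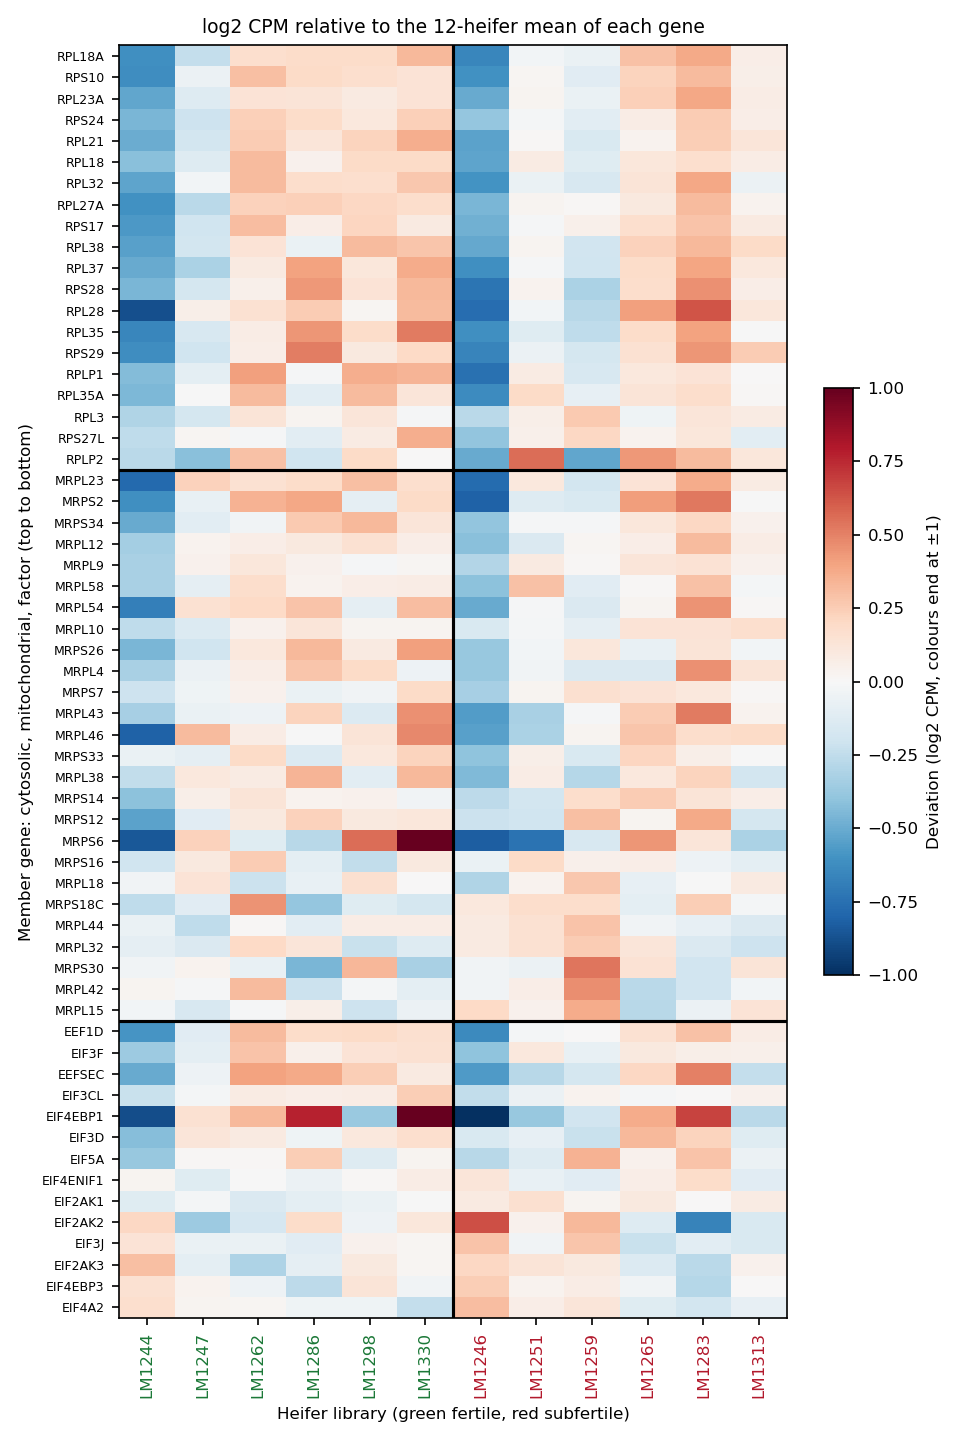
Deviation of log2 CPM from the 12-heifer mean of each gene (colour, red above and blue below, colours ending at 1 either way) for the 60 members (vertical axis: cytosolic, mitochondrial and factor genes, each ordered by correlation with the cytosolic mean) in the 12 heifers (horizontal axis). LM1244 and LM1246 are blue through the cytosolic class, where their mean deviations are -0.51 and -0.56, and red for the last factor genes.

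RPL28 (ENSBTAG00000023343), a large-subunit protein, had the largest spread of the cytosolic genes. It was at 233, 463 and 534 CPM in fertile and at 254, 444 and 664 CPM in subfertile heifers, a 2.85-fold range. LM1244 was far below the other fertile heifers, whose lowest was at 435 CPM, LM1246 was the lowest subfertile heifer with LM1259 next at 354 CPM, and LM1283 was highest. The range was 1.88-fold without LM1244 and LM1246. RPL3 (ENSBTAG00000003228) spread least, at 1095, 1356 and 1475 CPM in fertile and 1116, 1414 and 1618 CPM in subfertile heifers, a 1.48-fold range (1.36-fold without LM1244 and LM1246). RPS27L, the paralog of RPS27 that is known as a p53 target, was the next most even, from 33.9 to 57.3 CPM.

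The spread over the 12 heifers was widest in the cytosolic and narrowest in the factor class. The median standard deviation of log2 CPM was 0.31 for cytosolic, 0.23 for mitochondrial and 0.20 for factor genes, beside 0.30 for all genes tested. Without LM1244 and LM1246 the medians were 0.18, 0.18 and 0.14. In the mitochondrial class MRPS6 (0.77) and MRPS2 (0.41) varied most, and MRPL10 (0.13) and MRPL44 (0.15) least. In the factor class EIF4EBP1 (0.69) and EEFSEC (0.36) varied most, and EIF2AK1 (0.10) and EIF4ENIF1 (0.10) least, so the 1 member whose groups did not overlap was also the one with the smallest spread.

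The levels of the cytosolic genes varied together from heifer to heifer. The median Pearson correlation of log2 CPM over the 190 pairs of cytosolic genes was 0.887 over 12 heifers, 0.884 within the 6 fertile and 0.942 within the 6 subfertile heifers, against a median of -0.001 over all pairs of genes tested. It was 0.404 over the 325 mitochondrial pairs and -0.079 over the 91 factor pairs. All points share a library, its depth and its scaling, and most members were named for within-group correlation, so these values describe the members and support nothing further. On library size alone the cytosolic median was 0.820. Without LM1244 and LM1246 it was 0.671 for cytosolic, 0.106 for mitochondrial and 0.002 for factor pairs. Between the classes, cytosolic and mitochondrial genes had a median of 0.689, which was 0.255 without those libraries.

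**Figure D5:**
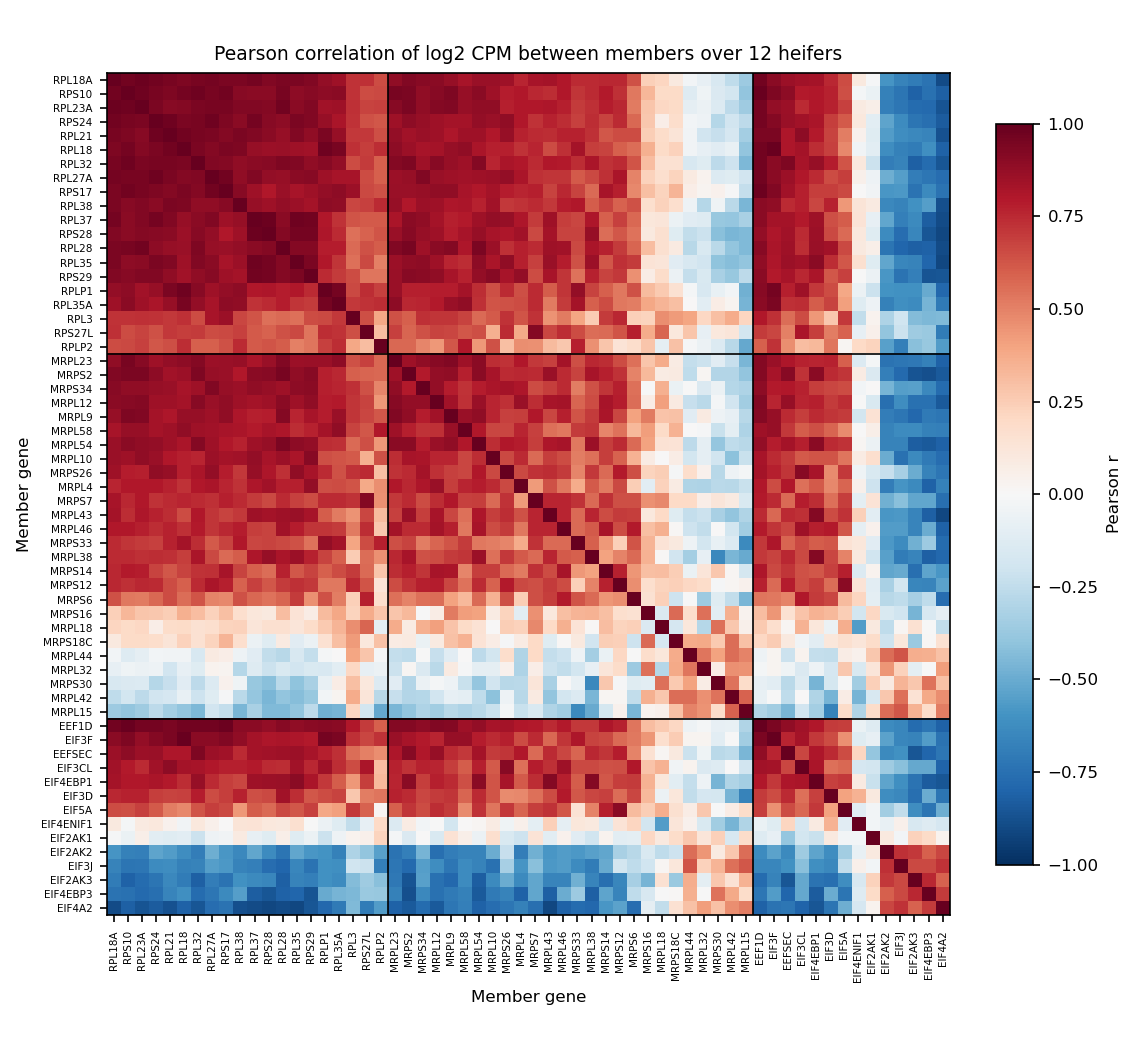
Pearson correlation of log2 CPM over 12 heifers (colour, red positive and blue negative) between each pair of the 60 members, ordered on both axes by class (lines divide cytosolic, mitochondrial and factor genes) and by correlation with the cytosolic mean. The cytosolic block has a median of 0.887, and 10 of 26 mitochondrial genes correlate with the cytosolic mean at 0.8 or more (0 of 26 without LM1244 and LM1246). The last 6 factor genes correlate negatively with the cytosolic mean.

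The factor genes ranged widely in their relation to the mean of the 20 cytosolic genes, a description over libraries that share depth and scaling. So did genes in general: the 5th and 95th percentiles over all genes tested were -0.797 and 0.818. EEF1D, a subunit of the exchange factor that recharges the elongation factor eEF1A, followed it most closely (r = 0.976 over 12 heifers, 0.897 without LM1244 and LM1246). EIF3F, a subunit of the eIF3 scaffold, had 0.936 (0.727 without them), EEFSEC 0.862 (0.723), EIF3CL 0.830 (0.402) and EIF4EBP1 0.815 (0.536). EIF3D was at 0.742 (0.571) and EIF5A at 0.606 (-0.017). At the other end EIF4A2, an RNA helicase of the cap-binding complex, had -0.880 (-0.753 without them), EIF4EBP3 -0.738 (-0.548), EIF2AK3 -0.721 (-0.450), EIF3J, a loosely bound eIF3 subunit, -0.7004 (-0.421), and EIF2AK2 -0.639 (-0.309), of which EIF4A2 alone lay beyond the 5th percentile of all genes. EIF2AK1 was at -0.046 (-0.237 without them). EIF4ENIF1 was at 0.057 with all heifers and at 0.855 without the pair.

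EIF4A2 (ENSBTAG00000014724) was at 534, 626 and 709 CPM in fertile and at 554, 629 and 781 CPM in subfertile heifers. Its highest values were in LM1246 and LM1244, the heifers lowest for the cytosolic genes, and its lowest in LM1330. Between the fertility groups it did not differ beyond the spread (log2FC 0.04, SE 0.10, edgeR P 0.689).

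A correlation of 0.8 or more with the cytosolic mean was found for 17 of 20 cytosolic genes, each taken against the mean of the rest, 10 of 26 mitochondrial and 5 of 14 factor genes, beside 6.03% of all genes tested. The counts without LM1244 and LM1246 were 12 of 20, 0 of 26 and 2 of 14 (EEF1D and EIF4ENIF1), beside 0.976% of all genes, so the mitochondrial count rested on those libraries. The cytosolic genes below it were RPL3 (0.708), RPS27L (0.687) and RPLP2 (0.658). Without LM1244 and LM1246 RPL3 was at 0.101 and RPS27L at 0.062. Among mitochondrial genes MRPL23 (0.921, and 0.589 without the pair) and MRPS2 (0.920, and 0.744) came closest to the cytosolic mean, while 5 of the 26 ran below 0, the lowest being MRPL15 at -0.388.

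Other genes of the translation pathway were described from lists of their symbols, of which the shortened copies of the tables name only a part. Of the mTOR and translation-control kinases 7 of 20 were named and tested, 3 of them being the eIF2α kinases above, and 0 were called, beside 1.4% of all genes tested, a share at which lists this short can hold no call without differing from other genes. The count was 0 of 5 for ribosome biogenesis (NPM1, GAR1, RRN3, RRP12, MYC), 0 of 4 for mitochondrial translation factors (GFM2, MTRF1, MTERF4, TFAM), 0 of 3 for aminoacyl-tRNA synthetases (IARS1, SARS1, TARS1), 0 of 2 for stress-response targets (ATF3, DDIT4) and 0 of 2 for other 5′ TOP mRNAs (FAU, HNRNPA1). At an edgeR P of 0.05 or less, beside 2.62% of all genes, EIF2AK1 was the 1 gene in these lists. Over the list of kinases the summed level was 428 to 477 CPM in fertile and 464 to 493 CPM in subfertile heifers, and these ranges overlap. FAU, which encodes the small-subunit protein RPS30 fused to a ubiquitin-like protein, was also lowest in LM1246 (607 CPM) and LM1244 (625 CPM). HNRNPA1, the other gene of that list, did not follow, with 957 and 934 CPM there in a range of 788 to 1036 CPM. Of the kinase list, MLST8, a subunit of the mTOR complexes, was lowest in the pair (9.71 CPM in LM1244 and 10.5 CPM in LM1246), as was the S6 kinase gene RPS6KB2 (62.2 and 55.9 CPM), with correlations to the cytosolic mean of 0.826 and 0.912. Other genes of these lists correlated negatively with that mean, among them RPS6KB1 (-0.765), IARS1 (-0.744) and TFAM (-0.727).

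Markers of the cell types in PWBCs varied partly with these genes. In LM1244 and LM1246 the summed T cell markers (CD3E, CD2, CD4, CD8A, TCF7) were at 1022 and 880 CPM and the B cell markers (CD79A, PAX5) at 367 and 395 CPM, the lowest of the 12 for B cells and among the 3 lowest for T cells, where LM1259 was lower still at 848 CPM. The low B cell sum is that of CD79A: PAX5 was at 31.9 CPM in LM1244 and 26.7 CPM in LM1246, within a range of 11.7 to 35.9 CPM. CD8A was not low in the pair either (56.8 and 62.1 CPM in a range of 36.4 to 90.5 CPM). CD4 was lowest in LM1246 (123 CPM) but at 162 CPM in LM1244, within a range of 123 to 333 CPM. The summed NK cell markers (GZMB, PRF1) were lowest in the pair as well, at 70.9 and 70.8 CPM, with the others at 76.1 to 158 CPM. The low NK sum is that of PRF1 (66.7 CPM in LM1244 and 67.3 CPM in LM1246). GZMB was at 4.17 CPM in LM1244 and 3.54 CPM in LM1246, within a range of 2.56 to 19.2 CPM. The neutrophil markers summed to 86.5 and 83.0 CPM there, inside the range of the 12 (21.7 to 215 CPM). The mean deviation of the cytosolic genes was -0.12 in LM1259, also below the mean of the 12, against -0.51 in LM1244 and -0.56 in LM1246. Correlations with the cytosolic mean were 0.582 for CD4, 0.695 for TCF7, 0.755 for CD3E, 0.765 for CD2 and 0.768 for CD79A. They were -0.149 for CD8A, -0.215 for PAX5, 0.065 for GZMB and 0.365 for PRF1. Between the groups 3 of the 20 cell type markers tested were called by edgeR, beside 1.4% of all genes, all lower in subfertile heifers: PAX5 (log2FC -0.51, P 0.0487), GZMB (-1.004, P 0.0432) and EPB42 (-0.96, P 0.0246), each with an adjusted P of 0.9998. Only markers with a symbol in the lists of the study could be tested, and these lists were partly selected for differing between the groups. PAX5 is itself among the genes that the paper reports as differing. The 3 of 20 therefore cannot be set against the share of all genes. The 4 platelet markers were not called, with a median log2FC of -1.02 (GP9 -1.22, P 0.128; TUBB1 -1.09, P 0.0874; ITGB3 -0.95, P 0.0973; ITGA2B -0.34, P 0.259), and their correlations with the cytosolic mean were 0.667 to 0.828. The part of these markers in the level of the translation genes was not tested.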

How the data were processed

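The authors deposited 1 table of raw read counts per Ensembl gene for the 12 libraries. According to the methods of the study, RNA was made into strand-specific poly(A) libraries, reads were mapped with STAR 2.7.5 to ARS-UCD1.3 and counted per gene by STAR, which uses uniquely mapped reads; the strand column taken is not given in the sources used here. Ribosomal protein genes have many near-identical copies in the genome, and EIF3CL and RPS27L have close paralogs, so their counts are uncertain to the extent that reads were shared. CPM are not corrected for gene length, so the levels given for different genes, markers included, cannot be ranked against each other. Sums over marker genes weigh the genes with more counts more heavily.

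Symbols came from shortened copies of the supplementary tables of the study, which were used for names only. Members and lists were chosen with earlier results of these data known. Genes were kept with filterByExpr (minimum count 10, 70%, given the groups), scaled by TMM and tested with the quasi-likelihood test of edgeR 4.0.16 (R 4.3.3) on the fertility group alone, with Benjamini-Hochberg adjustment over the 13012 genes kept. Standard errors were derived from the F statistic. CPM, counts over the TMM-scaled library total, are used as levels; spread and correlations used log2 CPM with a prior count of 2. Single members were also tested by an exact permutation test, two-sided, for all 60 members. DESeq2 1.42.0 and voom with limma 3.58.1, other scalings and filters, the reproductive tract score as a covariate and leaving out each library were alternatives; leaving out LM1244 and LM1246 together was added after seeing the data. The fits were tested on simulated data. No pair of the 66 library pairs held identical counts, and each library is a separate heifer.

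The members named are the 3 highest and 3 lowest log2FC and the 2 largest and 2 smallest standard deviations of each class, and the regulators. EEF1D, EIF3D, EIF3F, EIF3J, EIF4A2, MRPL23, the further members whose heifers stood apart (RPL35A, MRPL9, MRPL12, MRPS14, MRPS34, MRPS7), FAU, HNRNPA1, MLST8, RPS6KB1, RPS6KB2, IARS1, TFAM, the platelet markers, CD2, CD3E, CD4, CD8A, TCF7, CD79A, PRF1, CXCR2 and S100A9 were named after their values were seen. No sequences are printed, and genes of the families without a symbol in those copies were not analysed here.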

Additional observations from a re-analysis of the deposited data

Results flagged for a closer look

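In each group of 6 heifers, the highest and the lowest value of every member and of every class share was compared with the rest of its group by Dixon's ratio, the gap to the nearest heifer over the range of the group, at its 95% critical value, on log2 CPM for members and on the percent scale for shares. Of 126 such groups 16 had a heifer that stood apart, and chance alone gives about 1 in 20 for separate groups; these groups come from the same 12 libraries and from members that vary together, so they are not separate and the counts cannot be set against that share. In 15 of the 16 that heifer was the lowest and was LM1246 (9) or LM1244 (6).

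LM1246 stood apart among subfertile heifers in the summed cytosolic share (1.32%, the others 1.73 to 1.95%). Among cytosolic genes it did so for RPL35A (427 CPM, the others 623 to 753 CPM) and RPLP1 (1400 CPM, the others 2100 to 2579 CPM). Among factors it was low for EEF1D (126 CPM, the others 194 to 241 CPM), EIF3CL (134 CPM, the others 153 to 165 CPM) and EIF3F (135 CPM, the others 169 to 193 CPM). The mitochondrial genes were MRPL9 (69.3 CPM), MRPS34 (19.6 CPM) and MRPS7 (18.6 CPM).

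LM1244 stood apart among fertile heifers for RPL28 (233 CPM, the others 435 to 534 CPM), for the eIF3 subunit gene EIF3D (160 CPM, the others 208 to 240 CPM), and for MRPL23 (10.7 CPM, the others 20.4 to 22.6 CPM). The other genes were MRPL12 (29.8 CPM), MRPL9 (67.8 CPM) and MRPS14 (13.1 CPM). MRPL9 was thus low in both heifers.

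The 1 high value was that of MRPS18C in the fertile heifer LM1262 (26.8 CPM, the others 15.0 to 18.1 CPM). On the CPM scale 9 groups of a member passed in place of 15, and there MRPS6 in LM1330 (171 CPM) had a ratio of 0.720, which passes, against 0.496 on log2 CPM.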

How the results depend on the processing

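With DESeq2 or voom, other scalings and filters, or the reproductive tract score in the model, all with 12 libraries, 0 members were called and each of the 26 named members kept the sign of its log2FC. Leaving out 1 library gave 0 to 1 called members, the 1 being mitochondrial MRPS6 without LM1244 (log2FC -0.89); cytosolic and factor members stayed at 0. The median log2FC ran from -0.12 to 0.05 for cytosolic, -0.04 to 0.07 for mitochondrial and -0.02 to 0.03 for factor genes. Single members near 0 turned sign with 1 library left out, within -0.084 to 0.18 for EIF2AK2, -0.033 to 0.092 for EIF2AK3, -0.038 to 0.068 for EIF4EBP3, -0.011 to 0.050 for EIF4ENIF1, -0.15 to 0.099 for MRPS2, -0.023 to 0.15 for RPL23A, -0.092 to 0.17 for RPL28 and -0.080 to 0.044 for RPS27L. Without LM1244 and LM1246 together, chosen after seeing the data, EIF2AK2 was at -0.038 and EIF4EBP3 at -0.0048, the cytosolic median correlation was 0.671 and the cytosolic median standard deviation 0.18; the cause was not tested. With 1 library per heifer and 6 heifers per group, 10 of the 60 intervals reached beyond 0.5 in either direction, so for those genes a difference of that size could not be told from none. No paired analysis was made, because the groups are different heifers and the labels link no fertile heifer to a subfertile one.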
